A study of Caenorhabditis elegans with 4 samples.

Results

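CBP-1 peaks on chromosome X of Caenorhabditis elegans embryos are described here. A peak is a stretch of genome called as enriched after chromatin immunoprecipitation and sequencing (ChIP-seq). The members are all peaks placed on X in the series-wide list, 1204 of its 6289 peaks on the 6 nuclear chromosomes, or 19.1%. The lists of the ChIP samples are set beside it: 597 of 3121 nuclear peaks lay on X in replicate 1 and 331 of 1994 in replicate 2. Every sample is chromatin of N2 embryos, the wild-type strain, at mixed stages and 20 °C; the labels give the population as mixed males and hermaphrodites. The series has 2 CBP-1 ChIP samples, made with an affinity-purified rabbit polyclonal antibody against CBP-1, and 2 input samples, which were not analysed here. Whole embryos hold many cell types, so a peak is an average over them. Nothing in the labels ties the replicates to separate cultures, so the spread between their lists may be technical.

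CBP-1 is the worm relative of mammalian CBP and p300, large co-activators that acetylate histones and are brought to promoters and enhancers by transcription factors. X is the sex chromosome: hermaphrodites carry a pair and males a single copy. In hermaphrodite embryos a condensin-like dosage compensation complex binds both X chromosomes, loads at recruitment sites, spreads along them and lowers their transcription. The autosomes of this species have gene-rich centres and repeat-rich arms, a contrast that is much weaker on X.

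Each list gives the first base, last base and score of every peak, with positions in WormBase WS220, per the file headers. The sources used here do not give the scale of the authors' score, so it ranks peaks within a list only. No list holds read counts, and the depth behind a peak is unknown. A gene annotation of that build was not used here, so peaks are described by position. Peaks counted as present in another list when they overlapped it by at least 1 bp.

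Series-wide peaks were called along X, whose length is taken here as the furthest peak end. The series-wide peaks ran from position 1 to position 17718897, at 68.0 per Mb (exact Poisson 95% interval 64.2 to 71.9), and covered 0.411 Mb or 2.32% of X. The density was inside the range of the 5 autosomes, 46.1 on chromosome V to 75.6 on chromosome I. Replicate 1 had 33.7 X peaks per Mb and replicate 2 had 18.7, also inside their autosomal ranges of 21.1 to 38.1 and 14.6 to 26.4. Series-wide peaks found in both replicate lists numbered 241 on X, or 13.6 per Mb (11.9 to 15.4), against 9.03 to 17.6 on the autosomes. These intervals cover counting of peaks only, and peaks that lie close together are not independent.

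No stretch of X carried the bulk of the peaks. When X was divided into 5 stretches of equal length, from left to right, the series-wide list held 229, 236, 250, 234 and 255 peaks. The densities, 64.6 to 72.0 per Mb, had intervals that all overlapped. Replicate 1 held 115, 110, 110, 133 and 129 peaks in the same stretches, and replicate 2 held 75, 55, 63, 68 and 70. Peaks in both replicates numbered 57, 42, 40, 55 and 47. The first stretch was the highest in replicate 2 and among peaks in both replicates, and the lowest in the series-wide list, so the lists did not share an order.

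At a finer scale X was cut into 70 full bins of 250 kb, with each peak placed by its midpoint. Every bin held series-wide peaks, from 7 to 35 with a median of 17 (mean 17.0 ± 5.42, SD over 70 bins). No autosome had an empty bin in that list either, and their lowest counts ran from 1 on chromosome V to 8 on chromosome III. Replicate 1 had 1 to 16 peaks per bin and a median of 8. Replicate 2 had 0 to 10 and a median of 5, with 1 bin at 0. Peaks in both replicates ranged from 0 to 7 per bin with a median of 3, and 3 bins had none. The 2 replicate lists tended to be high in the same bins of X (Pearson's r 0.59, Spearman's rho 0.60 over 70 bins); on single autosomes r ran from 0.41 to 0.64. These bins come from the same pair of samples and share mappability and base composition, so the correlations are descriptions only.

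**Figure D1:**
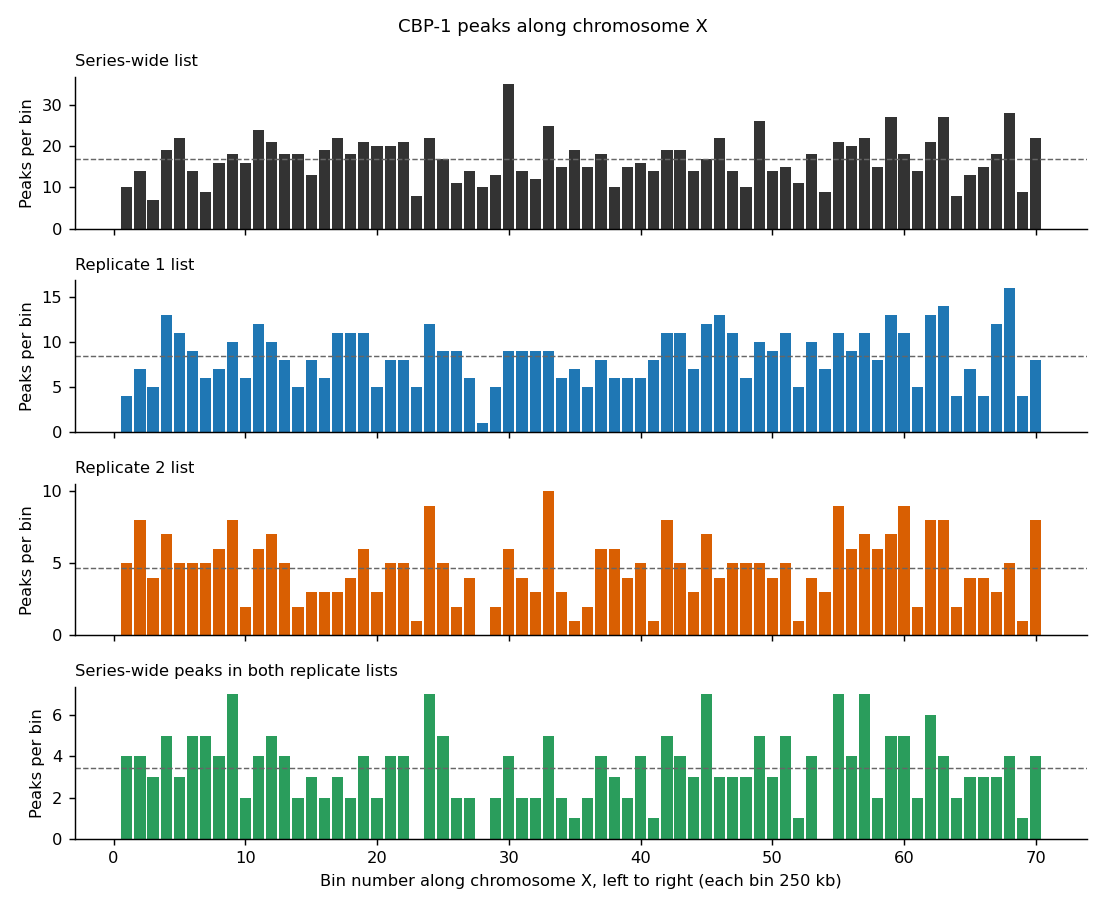
Peaks per 250 kb bin of chromosome X, in order from the left end, in the series-wide list, in replicate 1, in replicate 2, and for series-wide peaks in both replicate lists; dashed lines are the means over 70 bins. Series-wide counts stay between 7 and 35, and bin 28 is the lowest in both replicate lists, with 1 and 0 peaks.

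The densest bin was 7250001 to 7500000, with 35 peaks in the series-wide list, 9 in replicate 1 and 6 in replicate 2. Its lead came from weak peaks: 24 of the 35 were in neither replicate list, 4 were in both, and the median score was 4.89 against 8.40 for all X peaks. The bin's peaks were also crowded, and fell to 18 sites when neighbours under 1 kb apart were merged. The next bin, 16750001 to 17000000, held 28 series-wide peaks, 16 of replicate 1, the most of any X bin in that list, and 5 of replicate 2. It too shrank on merging, to 15 sites.

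Other dense bins were more spread out. The bin 15500001 to 15750000 had 27 series-wide, 14 replicate 1 and 8 replicate 2 peaks in 23 sites. The bin 14500001 to 14750000 had 27, 13 and 7 in 25 sites, the most sites of any X bin. These bins were high in all 3 lists, and stayed high after merging. The bin 12000001 to 12250000 had 26, 10 and 5 peaks in 18 sites. The bin that led by series-wide peaks did not lead otherwise: its 18 sites are near the upper quartile of 17.8 over X bins, and its 9 replicate 1 peaks are near the median of 8.

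The emptiest bins still held peaks. The lowest, 500001 to 750000, had 7 peaks in the series-wide list, 5 in replicate 1 and 4 in replicate 2. Although few, they were of high score, with a median of 21.4, and 3 of the 7 were in both replicates. The bin 5500001 to 5750000 had 8, 5 and 1 peaks, and 15750001 to 16000000 had 8, 4 and 2. The bin 17000001 to 17250000 had 9, 4 and 1, and 13250001 to 13500000 had 9, 7 and 3. In 2 of these 5 bins, those from 5500001 and from 13250001, no series-wide peak was in both replicate lists. A low count in one list did not always mean a low count in the others: the 7 replicate 1 peaks of the last bin are near that list's median of 8.

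The longest stretch without a series-wide peak was 107697 bp, from 6959862 to 7067558, and neither replicate had a peak inside it. A second of 106866 bp, 17043124 to 17149989, was likewise empty in all 3 lists. The other three were 94692 bp from 11095697 to 11190388, with 1 peak of each replicate inside, 94431 bp from 6410707 to 6505137, with 1 replicate 1 peak, and 94081 bp from 5859093 to 5953173, with 1 replicate 2 peak. The longest series-wide gap on X was shorter than that of every autosome, where the longest ran from 117044 bp on chromosome III to 304356 bp on chromosome II. Replicate 1 did not share this: its longest X gap, 317789 bp, was inside the autosomal range of 242696 to 464895 bp. In replicate 2 it was 325899 bp, under the autosomal 331940 to 504966 bp.

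Both replicate lists had their longest X gap in the same place, around the longest series-wide gap. Replicate 1 had no peak from 6750474 to 7068262, and replicate 2 none from 6742463 to 7068361. The series-wide list held 11 peaks that lay within or reached into the replicate 1 gap, with a median score of 5.36 and a highest of 19.07, and 10 of them were in neither replicate list. The stretch that both replicates left blank thus held series-wide peaks, with a median score below the 8.40 of all X peaks. Whether CBP-1 is bound there cannot be read from lists without depth.

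In bins of 250 kb X had the lowest variance-to-mean ratio of the 6 chromosomes, an order that depended on the bins and on the measure of evenness. The variance of the 250 kb bin counts divided by their mean, which is about 1 for independent placement and rises with clustering, was 1.73 on X in the series-wide list. On the autosomes it was 1.80 on chromosome IV, 1.94 on I, 2.22 on III, 3.40 on V and 3.91 on II. In replicate 1 X had 1.04 against 1.21 to 2.69 on the autosomes, in replicate 2 1.12 against 1.28 to 2.45, and among peaks in both replicates 0.836 against 1.07 to 1.90. That ratio depends on the mean count. By the SD as a percent of the mean of the same bins, X was the lowest in the series-wide list (31.9% against 32.0 to 54.5%) and in replicate 1 (35.1% against 40.6 to 66.2%), while chromosome III was lower in replicate 2 (44.0% against 48.8% on X) and among peaks in both replicates (49.2% against 49.5%). The variance-to-mean ratio also moved with the bins in the series-wide list. With bins of 500 kb X was again the lowest, 1.43 against 2.13 to 5.39 on the autosomes. With bins of 100 kb, chromosomes III (1.65) and I (1.66) were more even than X (1.70), and with bins shifted by 125 kb chromosome I was (1.58 against 1.74). A single X chromosome against 5 autosomes gave no test, and none was run.

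Adjacent bins of X did not resemble each other. On X the count of a series-wide bin was not high where its left neighbour was high, with r of -0.16 over 69 pairs of adjacent bins. On the autosomes the same r ran from 0.13 on chromosome I to 0.54 on chromosome V. In replicate 1 it was 0.06 on X and 0.11 to 0.42 on the autosomes. In replicate 2 it was -0.09 on X, inside the autosomal -0.25 to 0.22. These are descriptions of single chromosomes, without a test.

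**Figure D2:**
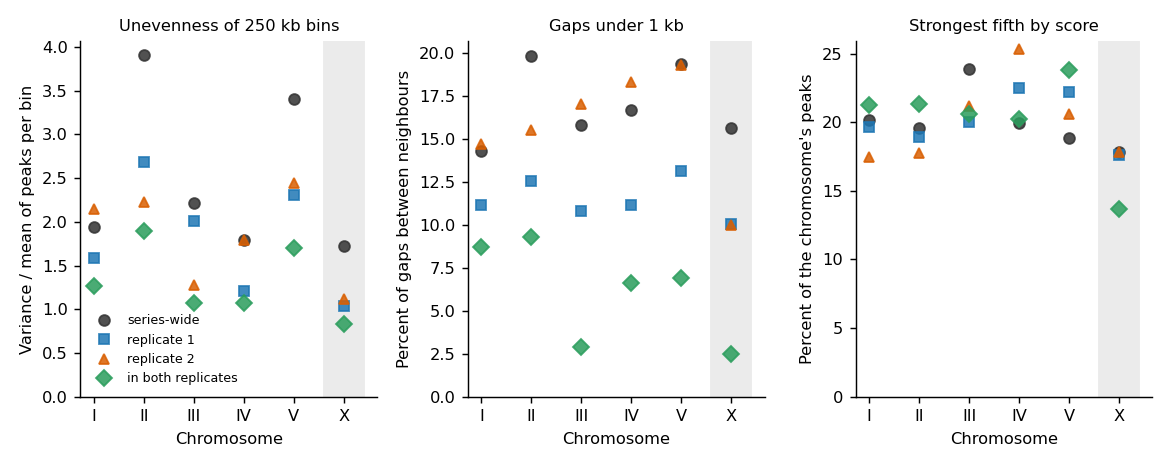
For each chromosome (X shaded) and each peak set, the variance-to-mean ratio of 250 kb bin counts, the percent of gaps between neighbouring peaks under 1 kb, and the percent of peaks in the strongest 20% of the set by score. X has the lowest variance-to-mean ratio in all 4 sets, 0.836 to 1.73, while its shares of short gaps and strong peaks are low in some sets and not in others.

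Neighbouring X peaks lay a median of 7555 bp apart in the series-wide list, with quartiles of 2179 and 19752 bp. The autosomal medians were 7325 to 9020 bp. In replicate 1 the median X gap was 17618.5 bp and in replicate 2 it was 32858 bp, both inside their autosomal ranges. The share of close neighbours was lower on X than on any autosome in both replicate lists, an order that was not tested: 10.1% of replicate 1 gaps were under 1 kb against 10.8 to 13.2%, and 10.0% of replicate 2 gaps against 14.7 to 19.3%. Among peaks in both replicates it was 2.50% against 2.89 to 9.30%. The series-wide list did not share this order, with 15.6% on X and 14.3% on chromosome I.

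Merging series-wide peaks less than 1 kb apart left 1016 sites on X, of which 893 were single peaks, 92 were pairs and 31 had 3 or more. Peaks in such runs made up 25.8% of X peaks, within the autosomal 24.8 to 31.9%. X had 3 runs of 5 or more peaks, against 1 on chromosome I and 4 to 12 on the other autosomes. The X runs were picked out after their values were seen. The longest, with 14 peaks, and the next, with 13, held more peaks than any autosomal run, where the most was 10 on chromosome II.

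The 3 runs were unlike each other. The run of 14 peaks covered 7354439 to 7361255 inside the densest bin, and all its scores lay between 2.44 and 5.63. Of the 14, 12 were in neither replicate list, 2 were reached by a single replicate 1 peak, and none was in replicate 2. Without it the densest bin would hold 21 peaks. The run of 13 peaks, 16929365 to 16938384, began with a peak of score 132.85, the third strongest on X. Behind it came a tail of 12 weaker peaks with scores of 2.80 to 11.86, of which 8 were in replicate 1 and none in replicate 2. The run of 8 peaks, 10360926 to 10369120, was broad and moderate, with widths of 185 to 2499 bp and scores of 3.99 to 16.89. All 8 were in replicate 1 and 3 were also in replicate 2.

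**Figure D3:**
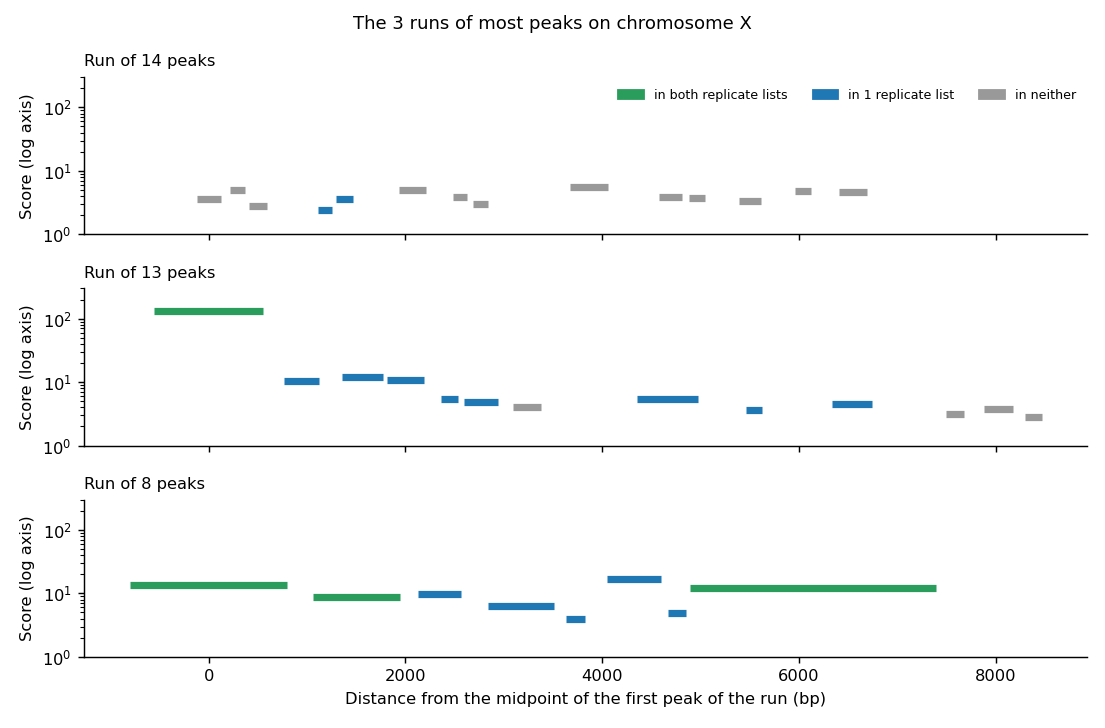
Each horizontal bar is a series-wide peak in the 3 largest runs on X, drawn at its width in bp from the first peak's midpoint and at its score (log axis), with colour for its presence in the replicate lists. The run of 14 does not exceed 5.63, the run of 13 begins at 132.85 and falls off, and the run of 8 lies between 3.99 and 16.89.

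The strongest X peak covered 11605258 to 11606611, with a series-wide score of 201.7, the 10th of all nuclear peaks. Its replicate 1 peak had a score of 3100, a value shared by 3 X peaks of that list, and its replicate 2 peak 1457.55, which ranked 3 on X. The value 3100 was also the highest replicate 1 score on chromosomes I, II, III and V. The scale of the score is unknown, so ranks at or next to 3100 may not order peaks by strength. The second, 5811788 to 5812787, scored 161.23; its replicate 1 peak was that list's highest on X at 3146.38 and its replicate 2 peak ranked 12th at 715.76. The third was the head of the run of 13, 16929365 to 16930471, with 2823.41 in replicate 1 and 684.93 in replicate 2. These leading peaks were 1000 to 1354 bp wide and high in every list.

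The 4th and 5th were narrower and ranked lower in the replicates, above all in replicate 2. The peak 4606204 to 4606815 scored 124.54, with rank 15 in replicate 1 and 79 in replicate 2. The peak 11643587 to 11644218 scored 118, with ranks 18 and 134. It lay in the same 250 kb bin as the strongest X peak. The sixth, 16612088 to 16612930, scored 99.19 and ranked 6 and 14. The peak 5840963 to 5841485, which shared a bin with the second, scored 92.21 and ranked 38 and 29.

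The last of the 10 were 14818535 to 14819312 at 89.68, 949360 to 949928 at 88.32 and 15274883 to 15275949 at 87.87. Their replicate 1 ranks on X were 20, 21 and 12, and their replicate 2 ranks 22, 45 and 46. All 10 had a peak in both replicate lists. They lay in 8 bins, 1 of them in the leftmost 1 Mb. The distance to the nearest neighbour differed among the 10. The gaps on either side of the 4th were 18064 and 9995 bp, and those of the 5th 35342 and 12397 bp. All of these exceeded the median X gap of 7555 bp. Each of the other peaks had a neighbour nearer than that median, and the 8th had one 39 bp away. By definition as many X gaps lie under the median as over it, and inner peaks have a gap on each side. A neighbour nearer than the median is therefore common on X, and the share over all X peaks was not counted. Of their bins, only that of the strongest and the 5th, with 14 series-wide peaks, was under the X median of 17. Whether strong peaks lie in crowded stretches was not tested.

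Strong peaks were found along X, and 4 of the 6 bins that held most of them lay between 13500001 and 15750000. The strongest 20% of all nuclear series-wide peaks began at a score of 22.35, and X bins held 0 to 7 of them with a median of 3. The bins 14750001 to 15000000, 15500001 to 15750000 and 13500001 to 13750000 each held 7, and 5750001 to 6000000, 1250001 to 1500000 and 14000001 to 14250000 each held 6, the last of these named after its value was seen. The bins with 7 lay near each other on the right part of X and were also high in replicate 2, with 9, 8 and 9 peaks in that order, against a median of 5. The densest bin of X had 3 such peaks, so density and strength did not coincide there.

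Strong peaks made up a smaller share on X than on the autosomes together in each peak set, but the planned test on the series-wide list did not pass. In the series-wide list 215 of 1204 X peaks, or 17.9% (Wilson 95% interval 15.8 to 20.1), were among the strongest 20.0% of nuclear peaks, against 1043 of 5085 or 20.5% (19.4 to 21.6) on the autosomes. The difference of -2.65 percentage points (95% interval -5.00 to -0.142) had p = 0.0410 by Fisher's exact test, two-sided, and did not pass after Benjamini-Hochberg adjustment over 6 tests (adjusted p = 0.123). Each autosome had a higher share, 18.9% on chromosome V to 23.9% on III. In replicate 1 the share was 17.6% on X and 20.6% on autosomes, and in replicate 2 17.8% and 20.4%, with chromosome I lower than X at 17.5%. Among series-wide peaks in both replicates, ranked within that set, 33 of 241 X peaks or 13.7% were in the strongest 20%, against 241 of 1129 or 21.3% on the autosomes and 20.3% on the lowest autosome, chromosome IV. This last difference was not tested. Fisher tests here count single peaks as independent, which they are not, so the p-values are too small.

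The median X score was the lowest of the 6 chromosomes in each replicate list, but not in the series-wide list. In the series-wide list it was 8.40, between 8.07 on chromosome V and 9.38 on III. In replicate 1 the X median of 137.9 was under all autosomal medians, 151.3 to 163.3, and in replicate 2 the X median of 76.7 was just under the autosomal 77.2 to 94.3. Among peaks in both replicates X had the lowest median series-wide score, 29.75 against 30.72 to 36.02. These orders were not tested.

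X peaks were mostly narrow, with a median width of 263.5 bp and quartiles of 192.75 and 379.25 bp in the series-wide list, inside the autosomal medians of 251 to 265 bp. The smallest was 146 bp, as on every autosome. The median was 437 bp in replicate 1, and 152 bp in replicate 2. Wider peaks scored higher on X, with Spearman's rho 0.67 across 1204 peaks, a relation across peaks of 1 list. The 60 peaks of 700 bp or wider made up 4.98% (3.89 to 6.36) of X peaks, against 4.88% (4.32 to 5.50) on the autosomes and 4.90% over all nuclear peaks. The difference was 0.106 percentage points (-1.15 to 1.59), with an adjusted p of 0.882 by Fisher's exact test. The wide X peaks had a median score of 31.6, and 50 of the 60 were in both replicate lists. On the autosomes 194 of the 248 peaks this wide were in both, and the difference was not tested. A wide peak is more easily overlapped.

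The widest peaks were not the highest in the series-wide list. The widest, 289851 to 295266, was 5416 bp across and ranked 166 on X by score at 27.47, yet replicate 2 had its eighth highest X score there, 989.89. Its replicate 1 score was 521.81, rank 77. The second, 109482 to 114285, was 4804 bp wide with a score of 45.29. Replicate 1 gave it 3100 and replicate 2 2077.02, the second highest X score of that list. The third, 15807342 to 15811193, was 3852 bp wide with a score of 79.96, and scored 3100 in both replicates. By score on X these regions ranked 166, 67 and 12 in the series-wide list, 77, 2 and 2 in replicate 1, and 8, 2 and 1 in replicate 2. The value 3100 recurred as the highest score of several chromosomes in both replicate lists. Ranks at 3100 may therefore not order peaks by strength.

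The other wide peaks differed in support. The peak 4025949 to 4029234, 3286 bp wide with a score of 26.83, overlapped a pair of replicate 1 peaks, the higher at 2181.99, and none of replicate 2. The peak 1752180 to 1755092, 2913 bp wide with a score of 26.42, had a replicate 1 score of 1752.69 and a replicate 2 score of 436.02. It was followed by 82698 bp without a series-wide peak. The first and second of the widest peaks lay in the first pair of bins, near the left end of X.

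**Figure D4:**
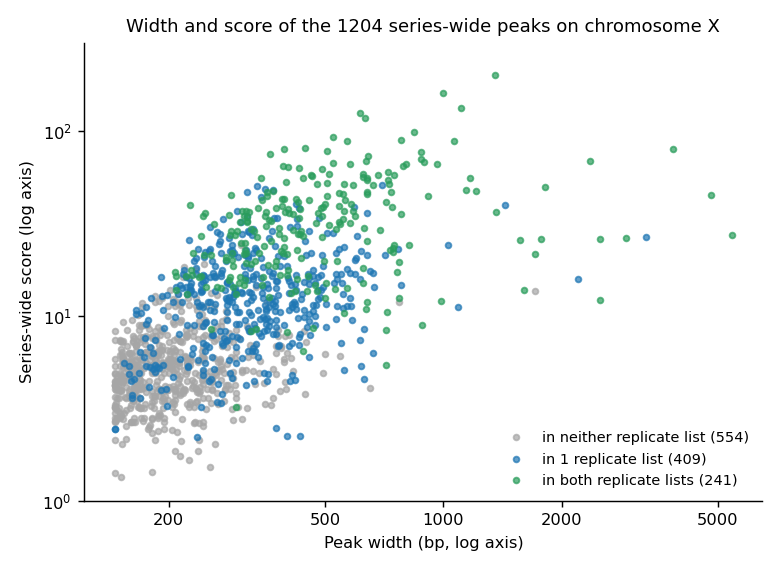
Series-wide score against width of each X peak, both on log axes, coloured by presence in the replicate lists. Peaks in both replicate lists (241) lie towards the upper right and those in neither (554) towards the lower left, and the peaks wider than 2000 bp have scores of 12.23 to 79.96, under the highest of 201.7.

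Of the 1204 series-wide X peaks, 241 or 20.0% (17.9 to 22.4) were in both replicate lists, 367 or 30.5% in replicate 1 only, 42 or 3.49% in replicate 2 only, and 554 or 46.0% (43.2 to 48.8) in neither. Over all nuclear peaks 21.8% were in both and 45.2% in neither. On the autosomes the share in both was 22.2%, a difference of -2.19 percentage points (-4.64 to 0.421), which did not pass (Fisher's exact test, p = 0.103, adjusted p = 0.206). The share in neither differed by 1.06 points (-2.06 to 4.19; Fisher's exact test, adjusted p = 0.779). X stood inside the autosomal range in both, since chromosome V had 19.6% in both and 48.3% in neither.

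With an overlap of 1 bp, no difference between X and the autosomes in how far the replicates shared peaks passed the test. In replicate 2, 266 of 331 X peaks, 80.4% (75.7 to 84.3), were also in replicate 1, against 79.6% on the autosomes and 79.7% over all nuclear peaks; the difference was 0.747 points (-4.23 to 5.15), with an adjusted p of 0.882 by Fisher's exact test. In replicate 1, 239 of 597 X peaks, 40.0% (36.2 to 44.0), were in replicate 2, against 44.9% on the autosomes and 44.0% over all nuclear peaks. That difference of -4.86 points (-9.17 to -0.430) had p = 0.0349 and did not pass after adjustment (Fisher's exact test, adjusted p = 0.123). All 5 autosomes had a higher share, from 43.8 to 47.5%. Under a reciprocal rule, by which the overlap had to reach 50% of both peaks, the shares were 9.55% and 14.7%. That difference passed within 6 tests (Fisher's exact test, adjusted p = 0.00541), without adjustment over the 21 alternatives tried. That rule also depends on width: a replicate 2 peak under 50% as wide as a replicate 1 peak cannot meet it. Median widths in replicates 1 and 2 were 437 and 152 bp on X, and 425 and 160 bp on the autosomes. Whether width bears on the difference was not tested.

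Support rose with score on X and on the autosomes. The series has only 2 ChIP samples and any pooling of reads is not given, so score and support may not be independent. Nuclear series-wide peaks were divided by score into 5 classes of equal size. From the weakest class to the strongest, 1 of 276, 2 of 245, 10 of 199, 70 of 269 and 158 of 215 X peaks were in both replicate lists. The corresponding shares were 0.362, 0.816, 5.03, 26.0 and 73.5%, and on the autosomes 0.513, 1.08, 3.67, 25.5 and 78.8%. In the strongest class all but 1 X peak (99.5%) were in at least 1 replicate list, and in the weakest 11.2% were. The autosomes were close to this, with 99.6% and 12.3%. The interval of the strongest X class, 67.2 to 78.9%, overlapped that of the autosomes, 76.2 to 81.2%.

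**Figure D5:**
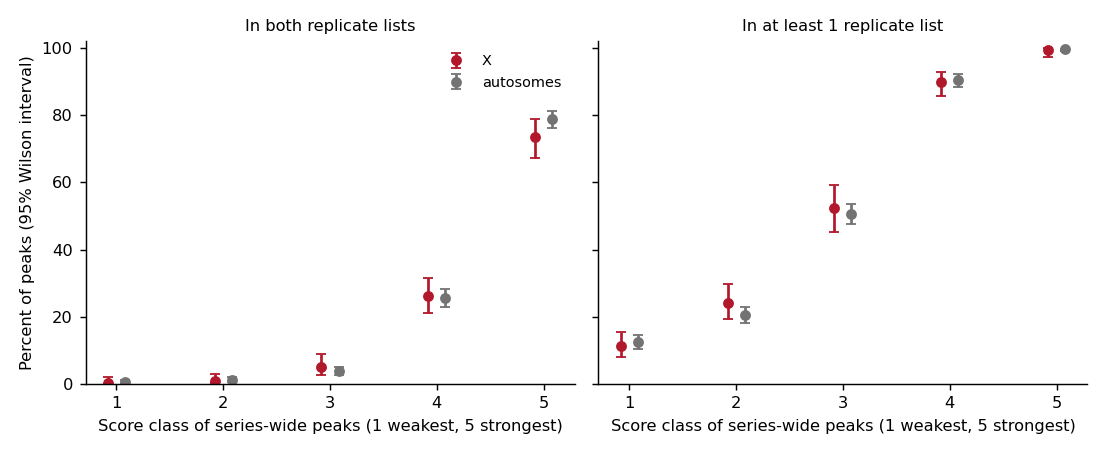
Percent of series-wide peaks on X and on the autosomes that were in both replicate lists and in at least 1, by score class, with 95% Wilson intervals. In both panels the share rises with score, to 73.5% of X peaks and 78.8% of autosomal peaks in both lists in class 5, and the intervals of X and the autosomes overlap in every class.

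X peaks found in both replicates were the stronger and wider ones. Their median series-wide score was 29.75 and their median width 439 bp. Peaks in replicate 1 only had 12.61 and 327 bp, peaks in replicate 2 only 8.165 and 236.5 bp, and peaks in neither list 4.94 and 197 bp. Almost all replicate peaks were taken up by the series-wide list, on X as on the autosomes. In replicate 1 these were 592 of 597 X peaks (99.2%) and 2502 of 2524 autosomal peaks (99.1%). In replicate 2 they were 308 of 331 (93.1%) and 1553 of 1663 (93.4%). The 23 replicate 2 X peaks that the series-wide list lacked had a median width of 106 bp, against 108 bp for the 110 on the autosomes. Scores of a shared site tended to rise together in both replicates, though ranks of single sites could differ widely. Spearman's rho was 0.65 over 239 replicate 1 X peaks paired with the highest overlapping replicate 2 score, as a description across sites.

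At the left end the first peaks began at position 1 in the series-wide list and in replicate 1, and at position 3 in replicate 2. At the right end the last series-wide peak, 17718592 to 17718897, had no counterpart: the last replicate 1 peak ended at 17641126 and the last replicate 2 peak at 17513815. Because lengths were taken from the furthest peak end, the right end holds a peak by definition.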

How the data were processed

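The material was ChIP-seq peak lists: 1 for each of 2 CBP-1 ChIP samples and 1 for the whole series. Inputs were not analysed here. Fixation took 30 minutes in 2% formaldehyde, per the labels' protocols. Per the submitters' processing notes, BWA and ce10 were used, with no version given. The files' source column names MACS for the replicate lists and MACS v2 for the series-wide list. Per the file headers, positions are in WormBase WS220. The deposited score is the authors' peak score; the sources used here do not give its scale, the call threshold, the control or any pooling of reads.

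Mitochondrial peaks were left out. Chromosome lengths are the furthest peak end over the 3 lists. Shares on X and on autosomes were compared with Fisher's exact test, two-sided, adjusted over 6 tests; share differences have Newcombe 95% intervals. Named are the 10 peaks of highest score, the 5 widest, the 5 longest gaps, and the 5 densest, 5 emptiest and 5 strongest bins. Members, lists and rules were chosen with earlier results of these data known. Alternatives changed the overlap rule, score cut, width cut, bins and merging. Procedures were tested on simulated data. Tools were scipy 1.17.1 and statsmodels 0.14.6 for the tests, matplotlib 3.10.9 for plots, and numpy 2.4.6 under Python 3.11.15.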

Additional observations from a re-analysis of the deposited data

How the results depend on the processing

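None of the 6 Fisher tests of X against the autosomes passed after adjustment, and 2 had an unadjusted p under 0.05. Of 21 alternatives, 1 passed, with 50% reciprocal overlap, a rule that also depends on the widths of both peaks. Under it the share of replicate 1 X peaks found in replicate 2 differed by -5.11 points (Fisher's exact test, adjusted p = 0.00541). Each alternative was adjusted within 6 tests and not over the 21 alternatives, so this p-value does not allow for their number. Adjusted p for that share ran from 0.00541 to 0.318 over its 3 alternatives. The direction turned, without a call, for replicate 2 peaks found in replicate 1 under the same rule (-5.03 points), for peaks in neither list at or above the median score (-2.15 points) and for peaks 1000 bp or wider (-0.0824 points). Without 1 replicate list the difference in the share found ran from -3.16 to -0.0818 points, in the share found nowhere from 0.0818 to 3.16, and in the strongest 20% from -3.01 to -2.62. The variance-to-mean ratio on X was 1.43 with 500 kb bins, 0.836 for peaks in both lists, 1.09 after merging and 1.04 to 1.12 in the replicate lists alone. Single replicate lists, alternatives added after seeing the data, gave 18.7 to 33.7 X peaks per Mb and median gaps of 17618.5 to 32858 bp; series-wide peaks at or above the median score gave 19440.5 bp. What causes these changes was not tested. No paired analysis was possible because no input list was used. Lists without depth cannot show a site to be unbound.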

Other observations

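Among the strongest 200 nuclear peaks of the series-wide list, 19 or 9.50% lay on X, against 19.1% of the whole list. At that cutoff the replicate lists were closer to their own shares. In replicate 1, 35 of 200 (17.5%) lay on X against 19.1%, and in replicate 2, 30 of 200 (15.0%) against 16.6%. The shares moved with the cutoff. From the strongest 10 to the strongest 1000, X held 8.00 to 16.7% in the series-wide list. It held 10.0 to 20.0% in replicate 1 and 14.0 to 20.0% in replicate 2. No test was run on these counts, which were picked out once their values were known.

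The longest stretch of X without a series-wide peak in both replicate lists was not empty. It covered 366219 bp, from 13145608 to 13511826, and 20 series-wide peaks lay in it or reached into it, with a median score of 9.03 and a highest of 27.85. Of these, 11 were in replicate 1, 2 in replicate 2 and 7 in neither. The replicate lists had 13 and 4 peaks there, including those that overlapped these series-wide peaks. Overlap between the 13 and the 4 was not examined.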
